A study of Caenorhabditis elegans with 4 samples.

Results

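The proteasome is the large protease that unfolds and degrades proteins tagged with ubiquitin in every eukaryotic cell. Its 20S core is a barrel of alpha rings and beta rings, and the active sites lie on some of the beta subunits. The 19S cap sits on the ends of the barrel. The base of the cap holds a ring of ATPases that unfold substrates together with scaffold and ubiquitin-receptor subunits, and its lid holds the deubiquitinase that removes the tag. In Caenorhabditis elegans, a nematode worm, the alpha subunits are encoded by pas genes, the beta subunits by pbs genes, the ATPases by rpt genes and the other cap subunits by rpn genes.

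Expression of these genes was measured on 4 two-colour microarrays, each comparing RNA of 1 preparation (prep) of wild-type adult worms in channel 2 with wild-type mixed reference RNA in channel 1. Both sides are labelled wild type, and the RNA is named mRNA in the source names but total RNA in the molecule field. The labels give no strain, sex, exact age, culture or treatment, nor what the reference was mixed from. The proteasome genes were taken as every probe whose only gene symbol starts with pas, pbs, rpt or rpn and a number. This gave 33 of 21632 probes, which stand for 31 genes, among 14935 genes tested. Of 33 listed subunit genes, pas-3 and pbs-1 had no such probe and were not analysed here. Of the 31 genes measured, 12 belong to the core and 19 to the cap, and all had a value on every array, so none was removed by the filter on missing values.

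The values are the deposited log2 ratios, averaged over the probes of a gene. A positive ratio likely stands for a higher RNA level in adults, since the adult RNA is in channel 2, but the numerator is not stated. The adult RNA stood in the same channel on each array, and so a gene's dye effect and a true difference of its RNA cannot be told apart. Means are followed by their SD (n = 4 preps). A gene is said to be called where limma, fitted to all genes against a ratio of 0, gave a Benjamini-Hochberg adjusted p under 0.05. The p-values measure the spread between these preps, which are not stated to be separate cultures, and leave out the spread of the reference. In RNA of whole worms a higher share of a tissue and more RNA per cell in it cannot be told apart.

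The arrays held between 21243 and 21501 values, with an SD of the log2 ratios between 0.756 and 0.921, and precision is limited by there being 4 arrays. They correlated over probes with Pearson's r between 0.659 and 0.755. All 12 oocyte markers and all 8 germline markers were called positive, and 4 of 7 moulting markers were called negative, with none positive. The sperm markers had the highest median of the marker lists, 2.44, and 42 of 46 were called positive. Most of them belong to the msp and ssp families, and shared signal between their probes was not tested. Of the adult intestine markers 2 of 7 were called positive (28.6%), near the 23.2% over all genes, and none negative. Of 8 neuron markers 7 were called negative, with a median of -1.81.

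All 31 proteasome genes had a positive mean, and 28 were called positive (90.3%) and none negative. Among all 14935 genes 23.2% were called positive and 21.2% negative. The means of the called genes lay between 0.45 and 0.91, that is 1.36-fold to 1.88-fold, with limma adjusted p between 0.0016 and 0.035. The median of the 31 means was 0.64 (1.56-fold), against 0.06 over all genes, and 83.4% of all genes had a lower mean. The members kept close to each other: the SD of their means was 0.17, against 0.759 over all genes, and 8.21% of all genes had a mean above that of the highest member. Without 1 prep the number called positive was 25 without prep 1, 21 without prep 2, 26 without prep 3 and 21 without prep 4. Without prep 2 the calls of pas-5, pas-7, pbs-7, rpt-3, rpn-3, rpn-7 and rpn-12 were lost (limma adjusted p between 0.051 and 0.068). Without prep 4 those of pas-5, pas-7, pbs-7, rpt-3, rpn-3, rpn-11 and rpn-12 were lost (between 0.051 and 0.12), and all these means stayed positive.

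**Figure D1:**
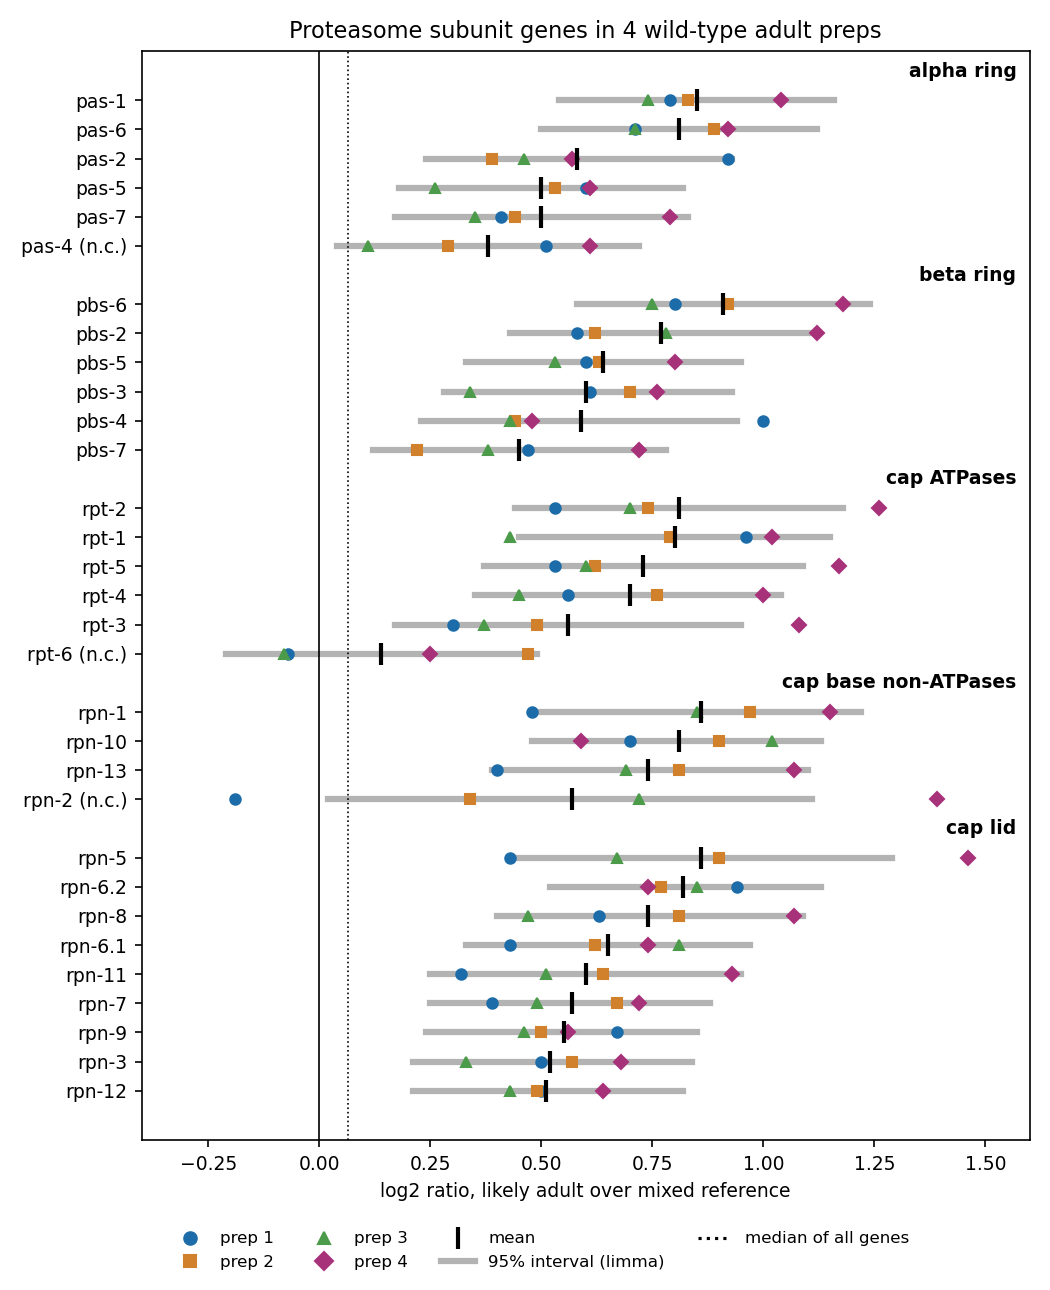
Log2 ratio of each proteasome gene (rows, grouped by place in the particle) on the 4 preps (coloured symbols), with the mean (black tick) and limma's 95% interval (grey bar). Genes marked n.c. were not called. All means lie to the right of 0, and 30 of 31 lie at 0.38 or above, while rpt-6 sits at 0.14.

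The alpha ring, the gate of the core, was represented by 6 of its genes, of which 5 were called positive. Its highest member, pas-1, had 0.79, 0.83, 0.74 and 1.04 on preps 1 to 4, a mean of 0.85 ± 0.13 (95% interval 0.54 to 1.16, limma adjusted p = 0.0017). The ratio of pas-1 was thus high on every prep. The gene pas-6 followed with a mean of 0.81 ± 0.12, and pas-2 had 0.58 ± 0.24, with prep 1 at 0.92 and the rest at 0.39 to 0.57. Further down stood pas-5 at 0.50 ± 0.16 and pas-7 at 0.50 ± 0.20.

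The lowest alpha gene was pas-4, which was not called. It had 0.51, 0.29, 0.11 and 0.61 on preps 1 to 4, with a mean of 0.38 ± 0.22 (95% interval 0.04 to 0.72, limma adjusted p = 0.066). All its values were positive, but it is the average of 2 probes that disagreed. The first pas-4 probe had 0.09, -0.16, -0.49 and 0.28, a mean of -0.07 ± 0.33. The second had 0.93, 0.74, 0.71 and 0.93, a mean of 0.83 ± 0.12. The value of the second probe is close to those of pas-1 and pas-6, and the probes did not overlap on any prep.

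All 6 beta genes measured were called positive. The highest mean of the whole proteasome was that of pbs-6, with 0.80, 0.92, 0.75 and 1.18 on preps 1 to 4 and a mean of 0.91 ± 0.19 (limma adjusted p = 0.0016). Of the subunits that carry active sites, the trypsin-like pbs-2 had 0.77 ± 0.24 and the chymotrypsin-like pbs-5 had 0.64 ± 0.11. The non-catalytic pbs-3 had 0.60 ± 0.19.

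The gene pbs-4 had 1.00, 0.44, 0.43 and 0.48, with a mean of 0.59 ± 0.27. Prep 1 thus stood apart from the rest for pbs-4, and was also the highest for pas-2. The lowest beta gene, pbs-7, had 0.47, 0.22, 0.38 and 0.72, with a mean of 0.45 ± 0.21 (limma adjusted p = 0.035). Its values were positive throughout, and its call was lost whichever prep was left out (adjusted p between 0.054 and 0.12). Over the core as a whole, 11 of 12 genes were called positive, and 7 of 12 without prep 1, where pas-2, pas-5, pbs-4 and pbs-7 lost their calls.

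The cap ATPases form the ring that pulls substrates into the core, and 5 of the 6 were called positive. The highest was rpt-2, with 0.53, 0.74, 0.70 and 1.26 on preps 1 to 4 and a mean of 0.81 ± 0.32 (limma adjusted p = 0.0048). Next came rpt-1 at 0.80 ± 0.27, rpt-5 at 0.73 ± 0.30 and rpt-4 at 0.70 ± 0.24. In rpt-2, rpt-5 and rpt-4 prep 4 was well above the other preps, and the same held for rpt-3, which had 0.30, 0.49, 0.37 and 1.08. The mean of rpt-3 was 0.56 ± 0.36 (adjusted p = 0.027), and it was not called without prep 2, 3 or 4 (adjusted p between 0.051 and 0.095).

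The lowest member of the whole proteasome was the ATPase gene rpt-6. It had -0.07, 0.47, -0.08 and 0.25 on preps 1 to 4, with a mean of 0.14 ± 0.27 (95% interval -0.21 to 0.49, limma adjusted p = 0.48). Preps 1 and 3 were just below 0, and prep 2 was the highest. The ratio of rpt-2 exceeded that of rpt-6 on all 4 preps, by 0.27 to 1.02, with a mean difference of 0.66 ± 0.31 on the log2 scale. The pair was picked for having the highest and lowest mean of the ATPases, so its mean difference is positive by that choice. These ATPases occupy the same ring, and a single probe measured each of them.

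The base of the cap also holds subunits that are not ATPases. The scaffold subunit rpn-1 had 0.48, 0.97, 0.85 and 1.15, with a mean of 0.86 ± 0.28 (limma adjusted p = 0.003). The other large scaffold gene, rpn-2, was the most uneven member, with -0.19, 0.34, 0.72 and 1.39 on preps 1 to 4 and a mean of 0.57 ± 0.66. It was not called (95% interval 0.02 to 1.11, adjusted p = 0.086), but without prep 1 it was, at 0.82 (adjusted p = 0.016).

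Both ubiquitin receptors of the base were called positive. The receptor gene rpn-10, whose loss is known to feminise the hermaphrodite germline, had 0.70, 0.90, 1.02 and 0.59, with a mean of 0.81 ± 0.19. It was highest on prep 3 and lowest on prep 4, unlike most members. The receptor gene rpn-13 had 0.40, 0.81, 0.69 and 1.07, with a mean of 0.74 ± 0.28. A probe that the annotation assigns to rpn-13 and let-767 together had lower values, from -0.06 to 0.52 with a mean of 0.15, and was left out because it names 2 genes.

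**Figure D2:**
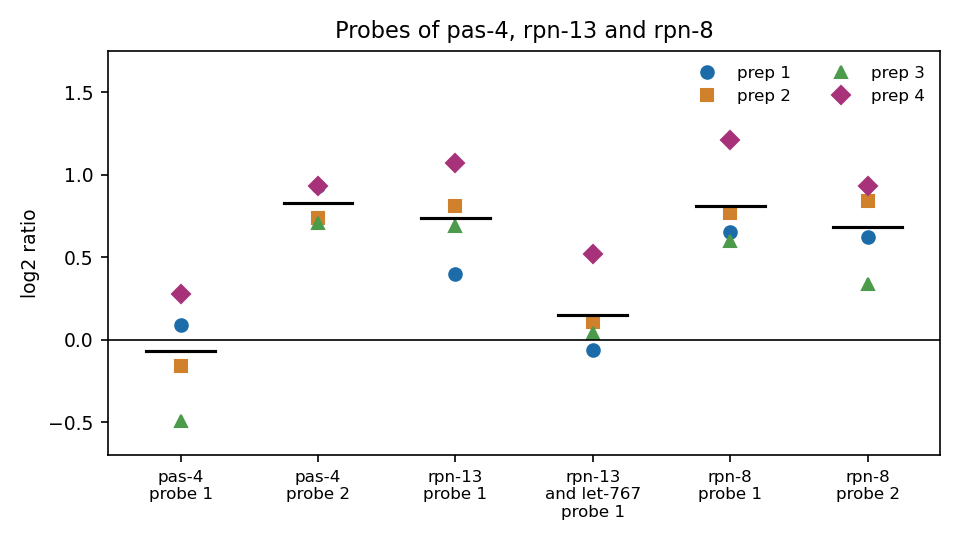
Log2 ratios of the probes of pas-4, rpn-13 and rpn-8 on each prep (symbols) with the mean of each probe (line). The 2 probes of pas-4 lie apart, at means of -0.07 and 0.83, while the 2 probes of rpn-8 overlap, at 0.81 and 0.68.

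All 9 lid genes were called positive. The highest was rpn-5, a scaffold subunit, with 0.43, 0.90, 0.67 and 1.46 on preps 1 to 4 and a mean of 0.86 ± 0.44 (limma adjusted p = 0.0068). Prep 4 was well above the other preps. The deubiquitinase of the lid, rpn-11, had 0.60 ± 0.26, and its partner rpn-8 had 0.74 ± 0.26. The scaffold genes rpn-7, rpn-9 and rpn-3 had 0.57 ± 0.16, 0.55 ± 0.09 and 0.52 ± 0.15. The lowest lid gene, rpn-12, had 0.50, 0.49, 0.43 and 0.64, with a mean of 0.51 ± 0.09 (adjusted p = 0.015), and so varied little between preps.

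The lid subunit RPN6 has 2 genes in this worm. The gene rpn-6.1, whose overexpression is known to raise proteasome activity and lengthen life, had 0.43, 0.62, 0.81 and 0.74, with a mean of 0.65 ± 0.17. Its paralog rpn-6.2 had 0.94, 0.77, 0.85 and 0.74, with a mean of 0.82 ± 0.09. The paralog's ratio minus that of rpn-6.1 was 0.50, 0.15, 0.04 and -0.01, a mean difference of 0.17 ± 0.23. That difference was smaller than its spread between preps. Whether the probe of each paralog also binds the other's transcript was not tested.

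The core and the cap were compared through the median of their genes on each prep. The median over the 12 core genes was 0.60, 0.58, 0.45 and 0.77 on preps 1 to 4, and the median over the 19 cap genes was 0.50, 0.67, 0.51 and 1.00. Core minus cap was 0.11, -0.10, -0.07 and -0.23 in the same order, with a mean of -0.07 ± 0.14. The sign was not the same on all preps and the mean was smaller than the SD. Of the core genes 91.7% were called positive, and of the cap genes 89.5%. Genes of a particle are not replicates, so no test was made.

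Within the particle, the base subunits other than ATPases had the highest median of means, 0.77 over 4 genes. They were followed by the ATPases at 0.71, the beta ring at 0.62, the lid at 0.60 and the alpha ring at 0.54. These groups are small and did not hold that order on every prep. The ATPase median minus the core median was -0.08, 0.11, -0.01 and 0.28 on preps 1 to 4. The beta ring exceeded the alpha ring by 0.14, 0.08 and 0.08 on preps 2, 3 and 4, with -0.05 on prep 1, a mean of 0.06 ± 0.08.

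**Figure D3:**
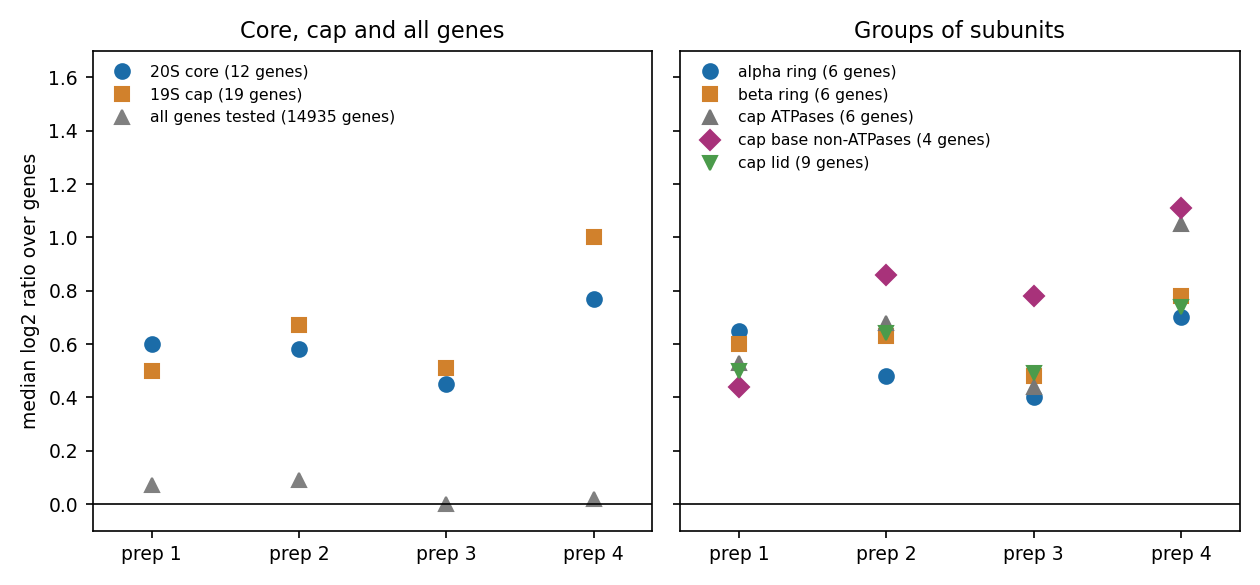
Median log2 ratio over genes on each prep, for the core, the cap and all genes tested (left) and for 5 groups of subunits (right). Core and cap lie near each other on preps 1 to 3, and on prep 4 the cap stands at 1.00 and the core at 0.77, while all genes stay between 0.00 and 0.09.

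Most members had their highest ratio on the same prep. Of the 31 genes, 24 were highest on prep 4, against 29.9% of all genes measured on every array. The lowest value fell on prep 3 for 15 genes and on prep 1 for 12. Of the 14639 genes measured on every array, 3892 were lowest on prep 3 and 3857 on prep 1. The members not highest on prep 4 were pas-2, pbs-4, rpn-6.2 and rpn-9, highest on prep 1, together with rpt-6, rpn-10 and rpn-6.1. Of the sum of squares of the members' values over the 4 preps, 36% lay between genes, 24% between preps and 40% was left over. The values of 29 genes were positive on all 4 arrays, against 30.7% of all genes measured on every array, the exceptions being rpt-6 and rpn-2.

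Markers of other cells moved between the same preps. The proteasome median was 0.53, 0.63, 0.49 and 0.80 on preps 1 to 4, and the median of the 12 oocyte markers was 0.71, 1.21, 0.60 and 1.55. Both were lowest on prep 3 and highest on prep 4. Of the lists described below, the ubiquitin and E1, anaphase-promoting complex, signalosome and cullin-RING ligase lists had the same extremes. The CDC-48, deubiquitinase, E2, eIF3, CCT chaperonin and autophagy lists were highest on prep 4 but lowest on prep 1. The proteasome-associated list was also lowest on prep 1, with 0.63 on both prep 3 and prep 4. The cytosolic ribosome list was lowest on prep 2, with 0.32 on both prep 1 and prep 3. A high prep 4 was thus not particular to the proteasome or to the ubiquitin lists. The 8 germline markers had 0.84, 1.22, 1.11 and 1.80, while the 46 sperm markers ran the other way at the extremes, with 2.60, 2.28, 2.92 and 1.94. The adult intestine markers stood at 1.26 on prep 4 and between 0.15 and 0.30 elsewhere, and the muscle markers at -1.58 on prep 1 and between -0.56 and 0.09 elsewhere. The neuron markers had -1.89, -2.07, -1.37 and -1.71. The part of these tissues in the proteasome values was not tested. The proteasome median was lowest on prep 3 and highest on prep 4, and the titles of those preps carry the same date.

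**Figure D4:**
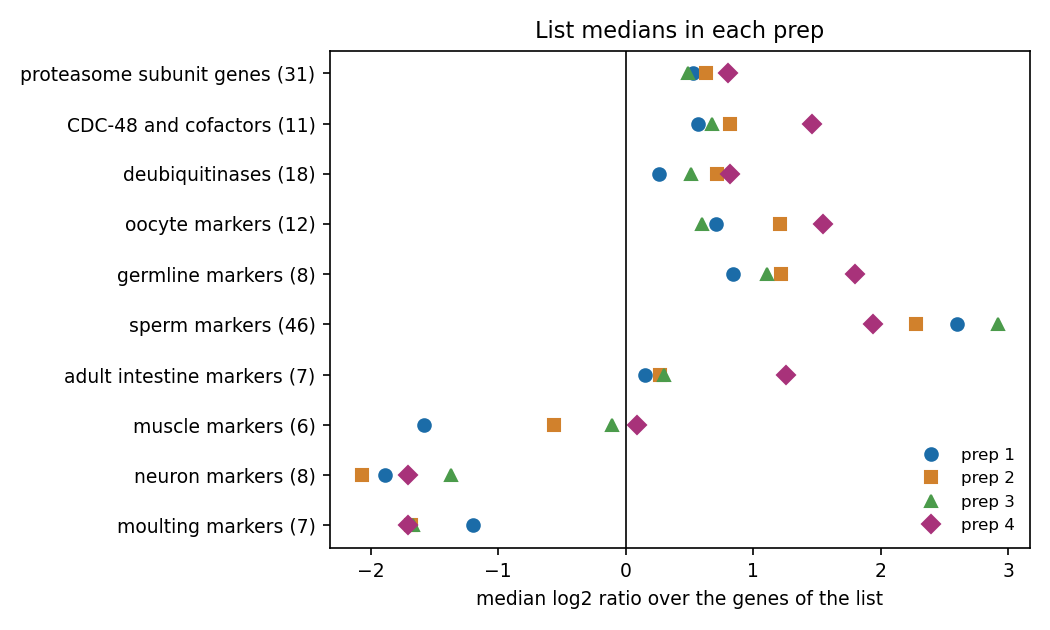
Median log2 ratio of the proteasome genes and of marker lists on each prep (symbols), with the number of genes in brackets. The proteasome medians lie between 0.49 and 0.80, those of oocyte markers between 0.60 and 1.55 and those of sperm markers between 1.94 and 2.92.

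The members lie on all 5 autosomes, with 9 on chromosome I, 7 on II, 8 on III, 2 on IV and 5 on V. None lies on X, which carries 15% of the genes tested. The ranges of the means overlapped between chromosomes, from 0.38 to 0.81 on I, 0.50 to 0.86 on II, 0.14 to 0.91 on III, 0.57 to 0.86 on IV and 0.58 to 0.85 on V. The nearest pair along a chromosome was pbs-7 and pas-4 on I, with 4 protein-coding genes between them, and every other pair of neighbouring members was separated by at least 35. The members are thus dispersed and not a cluster of adjacent genes.

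The list of proteasome-associated genes, which also holds skn-1, png-1, ddi-1 and psme-3, described below, had means from -0.07 to 1.42. Of 10 tested genes, 4 were called positive (40%, against 23.2% of all genes) and none negative, with a median of 0.37. The highest was ecps-1, which encodes a homolog of the proteasome adaptor ECM29, with 1.34, 1.14, 1.32 and 1.87 on preps 1 to 4 and a mean of 1.42 ± 0.31 (limma adjusted p = 3.4e-04). This was above every subunit. The proteasome-bound deubiquitinase usp-14 had 0.92 ± 0.34, the ubiquitin shuttle gene rad-23 had 0.91 ± 0.37 and ubh-4, a deubiquitinase that docks on RPN-13, had 0.72 ± 0.41.

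Of the genes that raise proteasome transcription when the protease fails, skn-1, png-1 and ddi-1 were tested, and none was called. Among all 14935 genes, 8296 were not called, so this says little about these genes. The transcription factor gene skn-1 had -0.29, 0.05, -0.03 and 0.38, a mean of 0.03 ± 0.28 (limma adjusted p = 0.9). The genes png-1 and ddi-1, which process the SKN-1 isoform that acts on proteasome genes, had 0.15 ± 0.36 and 0.11 ± 0.26. The activator gene psme-3 had -0.07 ± 0.18 and was not called either. The 95% intervals were -0.33 to 0.38 for skn-1 and -0.40 to 0.25 for psme-3.

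CDC-48 is the ATPase that extracts ubiquitin-tagged proteins and hands them to the proteasome. Of 11 genes for it and its cofactors 9 were called positive (81.8%, against 23.2% of all genes), and their median was 0.88. The cofactor gene ufd-3 had 1.33 ± 0.24 and cdc-48.2 had 1.31 ± 0.64 (limma adjusted p = 3.2e-04 and 0.0028). The paralog cdc-48.1 had -0.17, 0.56, 0.88 and 1.46 and was not called (adjusted p = 0.051). The paralog cdc-48.2, at 0.52, 1.07, 1.73 and 1.92, was likewise lowest on prep 1 and highest on prep 4. Whether these probes share signal was not tested.

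Upstream, 6 of 10 genes for ubiquitin, ubiquitin-like proteins and their E1 activating enzymes were called positive (60%, against 23.2% of all genes). None was called negative, and the median was 0.53. The ubiquitin-like ned-8 had 1.05 ± 0.66, with 2.03 on prep 4 and at most 0.78 elsewhere, and uba-5, the E1 of UFM1, had 0.99 ± 0.26. The ubiquitin E1 itself, uba-1, had 0.80 ± 0.41. Neither ubiquitin gene tested was called. The polyubiquitin gene ubq-1 had 0.19 ± 0.51 and ubq-2, a fusion of ubiquitin with a ribosomal protein, had -0.53 ± 0.52. The E2 list as used held 4 genes, let-70 and the E2 variants uev-1, uev-2 and uev-3. All were tested and none was called, as for 8296 of all 14935 genes. Other E2 genes were not examined here, so the list does not describe the E2 enzymes as a class. The mean of uev-2 was -0.34 ± 0.12 and that of uev-1 was -0.06 ± 0.18.

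Ligases were mixed. Of 33 cullin-RING ligase genes 7 were called positive (21.2%) and 5 negative, with a median of 0.16, near the share over all genes. Without prep 4 the positive calls were 4. The substrate adaptor gene zif-1, which acts in embryos on germline proteins, had 1.21 ± 0.56, and the Skp1-related gene skr-5 had -1.48 ± 0.07. All 5 negative calls were Skp1-related genes, a family of similar sequences, while skr-2 and skr-17 of that family were called positive. Shared signal between their probes was not tested. The anaphase-promoting complex is the ligase that drives exit from mitosis and meiosis. Of 10 of its genes 5 were called positive (50%, against 23.2% of all genes) and 1 negative. They included apc-10 at 0.86 ± 0.28 and the activator gene fzy-1 at 0.85 ± 0.25, against apc-11 at -0.67 ± 0.14.

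Of 18 deubiquitinase genes 11 were called positive (61.1%, against 23.2% of all genes), none was called negative and the median was 0.57. The positive calls were 7 without prep 2 or prep 4, while 17.2% and 18% of all genes were called positive. The highest were duo-1 at 1.28 ± 0.33 and usp-48 at 1.03 ± 0.30. Over all 97 tested genes of the ubiquitin and proteasome-handling lists 42 were called positive (43.3%) and 6 negative. The share was thus below that of the subunits and above that of all genes, and genes that stand in several lists were counted once.

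**Figure D5:**
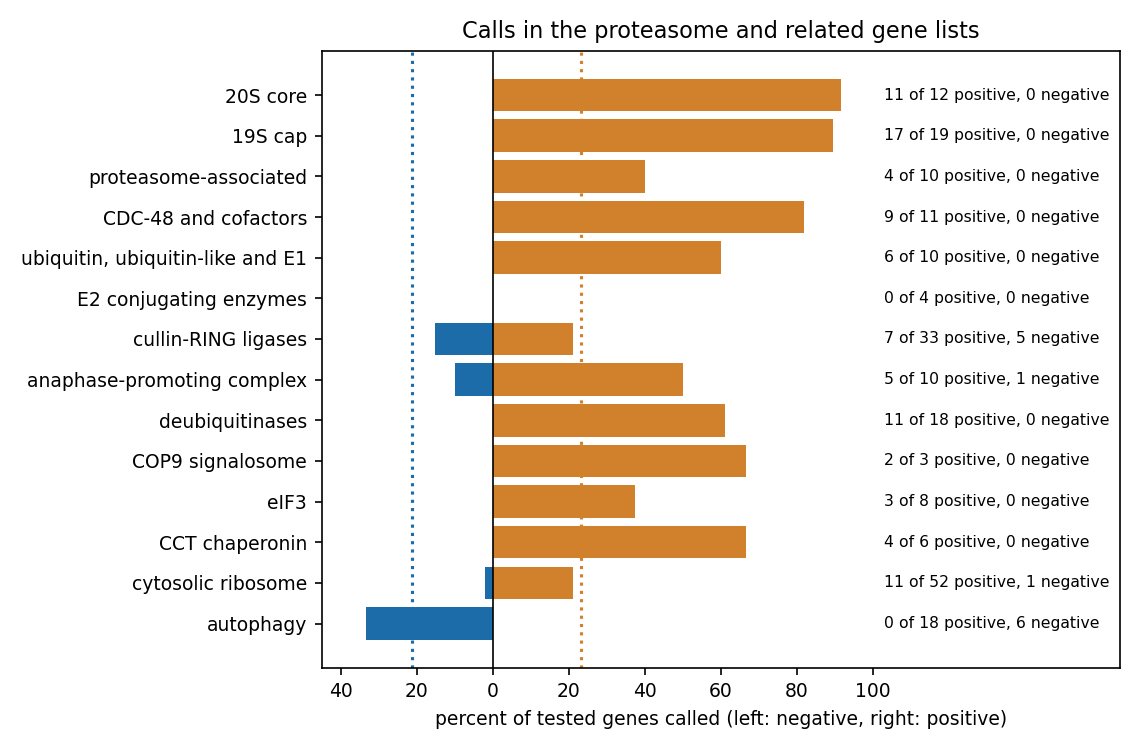
Share of the tested genes of each list called positive (bars to the right) or negative (bars to the left) by limma, with the numbers at the right. Dotted lines mark the shares over all genes, 23.2% positive and 21.2% negative. The core, the cap and the CDC-48 list stand furthest to the right, and the autophagy list has negative calls only.

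The lid shares its build with the COP9 signalosome, which removes NED-8 from cullins, and with the translation factor eIF3. Of 3 signalosome genes tested, cif-1 had 0.86 ± 0.28 and csn-5 had 0.43 ± 0.22, and both were called positive (66.7%, against 23.2% of all genes). The count of called signalosome genes was 1 when the array medians were set to 0, and 1 without prep 1, 2 or 4. Of 8 eIF3 genes 3 were called positive (37.5%, against 23.2% of all genes) and none negative, with a median of 0.34. Without prep 3 or prep 4 the positive calls were 1, while 20% and 18% of all genes were called positive. The subunit genes eif-3.K and eif-3.H had 0.71 ± 0.07 and 0.57 ± 0.36. The median of these 2 complexes lay below that of the lid, 0.60.

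The CCT chaperonin, which folds actin and tubulin, and the cytosolic ribosome were set beside the proteasome. Of the 6 CCT genes tested 4 were called positive (66.7%, against 23.2% of all genes), with a median of 0.59. The genes cct-6 and cct-4 had 0.66 ± 0.11 and 0.62 ± 0.18. Of 52 cytosolic ribosomal protein genes 21.2% were called positive, against 23.2% of all genes, with a median of 0.27. Their positive calls, 11 with all preps, numbered between 2 and 6 when 1 prep was left out. The means furthest from 0 in that list were those of a pair of paralogs, 1.39 ± 0.26 for rpl-11.1 and -0.64 ± 0.28 for rpl-11.2.

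Autophagy, the other main route of protein breakdown, had no positive call. Of 18 genes 6 were called negative, against 21.2% of all genes, with a median of -0.26. The negative calls were 4 of 18 whichever prep was left out, while 16.7% to 18.6% of all genes were then called negative. That count is near the share over all genes. The receptor gene sqst-1 had -2.12, -2.11 and -1.18 on preps 1, 3 and 4, with no value on prep 2, and a mean of -1.80 ± 0.54 over 3 preps (limma adjusted p = 9.4e-04). The gene atg-16.2, needed to build autophagosomes, had -0.64, -1.14, -1.48 and -0.93, with a mean of -1.05 ± 0.35. The autophagosome membrane genes lgg-1 and lgg-2 had -0.56 ± 0.32 and -0.81 ± 0.45. The median of this list was lower than the proteasome median on every prep, at -0.53, -0.19, -0.29 and 0.16 on preps 1 to 4.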

How the data were processed

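The deposited table holds 1 value per probe and array, taken from its values as a log2 ratio of the channels, since 2 raised to the value gave a ratio with 3 decimals for 99.934% to 99.995% of values. The sources used here do not state how spots were scanned, dyed, filtered, background-corrected and normalized, or which channel is the numerator. Array medians lay between -0.0043 and 0.0496. Signal intensities were not analysed here, so spots near background are not known.

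Probes with 1 gene symbol in GEO's platform annotation (16450, against 247 with several and 4935 with none) were averaged by gene. Symbols were updated by gene ID for 16360 probes and by accession for 8 through RefSeq (WBcel235), while 82 kept theirs. The fit used limma 3.58.1 (R 4.3.3; intercept, lmFit, eBayes, two-sided) for genes measured on 3 or 4 arrays, adjusted over 14935 genes. The procedure was tested on simulated data. The members and lists were chosen with earlier results of these data known. Every proteasome gene is named with its mean. Values on each prep are given for the highest and lowest gene of each group of subunits, for genes not called and for discordant probes, and each pathway list names its 2 largest means. Further list genes, such as skn-1, cdc-48.1, uba-1, ubq-1, ubq-2, apc-11, lgg-1 and lgg-2, were named after their values were seen. Alternatives covered centring, scale, quantile normalization, probe summary, missing values, the prior, array weights, title date, symbols, a minimum size and each prep left out.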

Additional observations from a re-analysis of the deposited data

Results flagged for a closer look

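Of 59 sets of 4 values, 5 had a single prep far from the others, where chance gives about 1 in 20, here 3. On prep 1 the log2 ratio of the beta subunit gene pbs-4 was 1.00, against 0.43 to 0.48 on the others. On prep 4 that of the ATPase gene rpt-5 was 1.17, against 0.53 to 0.62. For genes of the cytosolic ribosome, prep 2 had a median of 0.12 and the other preps had 0.29 to 0.32. The adult intestine markers stood at a median of 1.26 on prep 4, against 0.15 to 0.30, and the moulting markers at -1.20 on prep 1, against -1.71 to -1.67. The moulting medians do not cover the same genes, since bli-2 had 1.55 on prep 1 and no value on prep 2. On prep 1 that median was the value of dpy-5, while noah-1, noah-2 and mlt-11 lay between -3.27 and -2.81. The moulting medians are thus no measure of a shift of the whole list on prep 1. The cause was not tested in any of the 5.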

How the results depend on the processing

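The count of 28 positive calls lay between 21 and 28 under every alternative run. Array medians set to 0, equal spreads, quantile normalization, both other probe summaries, array weights, the robust prior, a minimum of 2 or 4 arrays, the title date as a block and unchanged symbols kept the same 28 genes. With 1 prep left out, the core genes called numbered between 7 and 10, against 11 with all preps, and the cap genes between 13 and 18, against 17. The share of all genes called positive was then 17.2% to 20.6%, with fewer arrays in each fit. With 1 probe per gene, pas-4 had a mean of -0.07 (limma adjusted p = 0.76), the value of its lower probe. Core minus cap lay between -0.13 and -0.02 under the alternatives run, and the mean over genes in place of the median gave -0.03. Adding dss-1 to the cap was not run, since no probe named it alone. No paired analysis was possible because the arrays form 1 group. Signal over background was not analysed here.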
